A study of Mus musculus with 2 samples.

Results

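Slurp1, Psca and 6 further genes of Ly6-type proteins (Ly6d, Ly6a, Ly6e, Ly6g6c, Lypd3 and Lynx1) were examined in the epidermis of mice lacking the calcium-sensing receptor in keratinocytes. They were chosen by name as 8 of the 17871 genes on the array, with the knowledge that the knockout signal was higher for Slurp1 and lower for Psca. All probes assigned to these genes were taken, 10 of 25697 in all. The knockout sample (KO) came from mice with floxed Casr alleles and a Cre recombinase driven by the Krt14 promoter, which is active in basal keratinocytes, so that the gene is removed in these cells and their descendants. The control sample (CON) came from littermates labelled CaSR fl/fl without mention of the Cre. Both groups carried the floxed alleles, were of the C57BL6 strain and were taken at postnatal day 5. Back skin epidermis was lifted from the dermis with dispase, and each genotype was represented by pooled RNA of 3 mice on 1 Illumina bead array. The protocols mention a VDR knockout (vitamin D receptor) in 1 place, but all other labels of these samples name CaSR and were followed.

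Proteins of the Ly6/uPAR family share a small, compact domain held together by conserved disulfide bridges. Most are tethered to the outer face of the plasma membrane by a glycosylphosphatidylinositol (GPI) anchor, while the SLURP proteins are secreted. Several members, among them Slurp1 and Lynx1, bind nicotinic acetylcholine receptors and modulate them. Loss of SLURP1 in humans causes the skin disease mal de Meleda, a thickening of the palms and soles, and mice without Slurp1 also develop palmoplantar keratoderma.

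With 1 pool on 1 array for each genotype there were no replicates. No test between genotypes could be made, no value carries a replicate error, and every fold below is a description of this pair of samples. Of all probes, 42.0% were detected in the KO sample and 42.4% in the CON sample at a detection p-value of at most 0.01, and 8508 genes were detected in at least 1 sample. The median log2 ratio, KO over CON, over these genes was 0.01. The only available scale of precision was the agreement of different probes for the same gene, whose log2 ratios had a pooled SD of 0.11 over 1872 genes. A distance of 2 such SDs corresponds to 1.17-fold. This SD contains no variation between mice or hybridisations. The 1 probe for Casr gave 148.2 in the KO sample (detection p-value 0.0639) and 122.9 in the CON sample (detection p-value 0.891), not above background in either, so it provided no check of the genotype labels. Keratinocyte markers were strong in both samples. Krt5 had signals of 16377.4 in KO and 19907.2 in CON, Krt10 17015.6 in KO and 14627.7 in CON, and loricrin (Lor) 14044.5 in KO and 14350.2 in CON.

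All 8 genes were detected in both samples. Among them, Slurp1 was at least 1.5-fold higher and Psca at least 1.5-fold lower in the KO sample, while the other 6 did not reach this threshold. Over all 8508 detected genes, 0.176% were at least 1.5-fold higher and 0.235% at least 1.5-fold lower in KO. Since the genes were chosen on this same comparison, the count is given beside these shares as a description only.

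Slurp1, which encodes the secreted protein described above, had a normalized signal of 428.8 in the KO sample and 267.3 in the CON sample. Before normalization the same probe read 540.2 in KO and 300.1 in CON. The KO signal was therefore the higher one in both versions of the data, and the normalized log2 ratio was 0.68, or 1.60-fold. Slurp1 ranked 11th from the top of the 8508 detected genes. The signal stood at 2.58 times the lowest detected signal of the KO array and 1.62 times that of the CON array, and so was close to the detection limit in both. In bulk RNA, a difference in the number of cells expressing a gene and a difference in RNA per cell cannot be told apart.

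Lynx1, which encodes a GPI-anchored modulator of nicotinic receptors first known from neurons, also had a higher signal in the KO sample on the probe that detected it. That probe read 286.6 in KO and 204.6 in CON, a log2 ratio of 0.49 or 1.40-fold, and ranked 25th from the top. The second Lynx1 probe, assigned to the same transcript record, read 130.8 in KO and 135.6 in CON and was not above background in either sample. The higher signal thus rests on 1 of 2 probes. The gene next to Lynx1 is Slurp2, which encodes a further secreted Ly6-type protein of keratinocytes, and its own probe read 685.8 in KO and 662.4 in CON (log2 ratio 0.05). Whether the Lynx1 probes also bind Slurp2 transcripts was not tested.

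Psca encodes a GPI-anchored surface antigen first described in prostate and also found in bladder and stomach epithelium. Its signal was 225.4 in the KO sample and 381.8 in the CON sample, and before normalization 261.7 in KO and 446.3 in CON. The KO signal was the lower one in both versions, with a normalized log2 ratio of -0.76, or 1.69-fold lower. Psca ranked 10th from the bottom of the detected genes. It stood at 1.36 times the lowest detected signal in KO and at 2.32 times in CON.

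**Figure D1:**
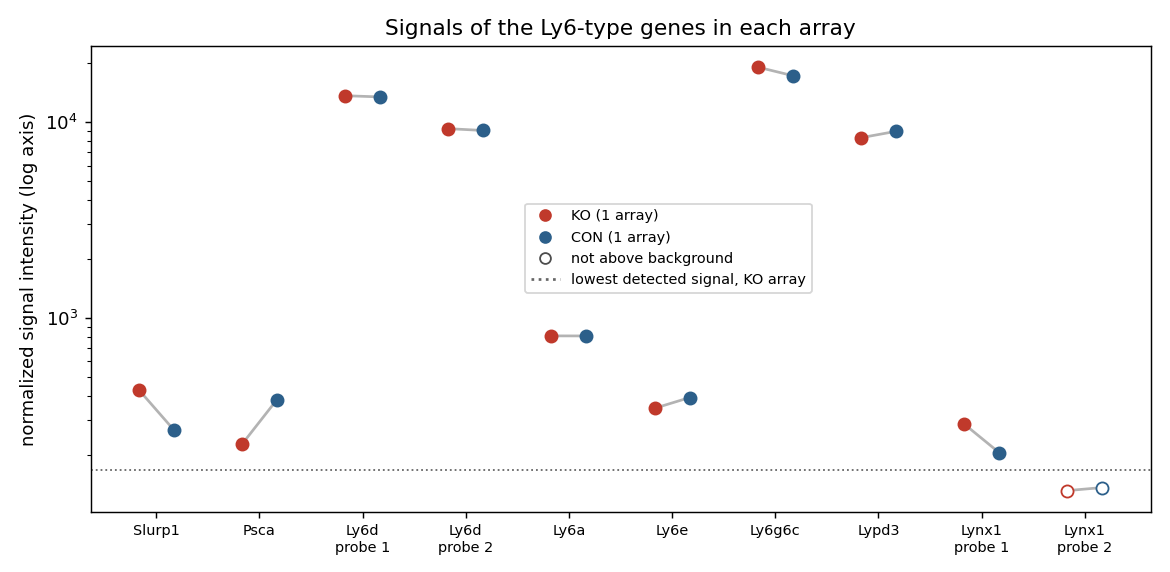
Normalized signal intensity (log axis) of each probe for the 8 genes in the KO array (red) and the CON array (blue), with a line joining the readings of 1 probe, open circles for readings not above background and a dotted line at the lowest detected KO signal of 165.9. Slurp1 (428.8 in KO, 267.3 in CON), Lynx1 probe 1 (286.6 and 204.6) and Psca (225.4 and 381.8) show the steepest lines, and both Ly6d probes are nearly level.

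Among the remaining GPI-anchored members, Ly6d, a surface protein of stratified epithelia, was measured by 2 probes. The brighter read 13642.6 in KO and 13447.7 in CON, and the other 9257.6 in KO and 9061.2 in CON. Their log2 ratios were 0.02 and 0.03, both smaller than the SD between probes. Lypd3, found in the suprabasal layers of stratified epithelium, read 8319.9 in KO and 8969.7 in CON (log2 ratio -0.11). Ly6g6c, encoded in the MHC region of chromosome 17, read 19100.5 in KO and 17268.7 in CON (log2 ratio 0.15). The differences of Lypd3 and Ly6g6c lay within 2 SDs of the spread between probes.

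Ly6a, the mouse stem cell antigen that marks haematopoietic stem cells and is also present on keratinocytes, had almost identical signals, with 808.0 in KO and 807.4 in CON (log2 ratio 0.001). Ly6e, an interferon-inducible surface protein, read 344.6 in KO and 391.0 in CON, 1.13-fold lower (log2 ratio -0.18) and also within 2 SDs. Signals of different probes depend on how well each probe binds, so the abundances of the 8 transcripts were not ranked against each other.

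Slurp1, Psca, Lynx1 and Ly6e all had signals between 200 and 500 in both samples, the weak end of the detected range. This range, set after the values were seen, held 2921 genes. Their log2 ratios had an SD of 0.14 across genes, 0.137% of them were at least 1.5-fold higher and 0.205% at least 1.5-fold lower in KO, and probes of the same gene in this range differed with a pooled SD of 0.11 (480 genes). The spread among these genes was close to that of the whole array in these normalized values, which still contain background. Because both signals had to lie in the range, weak genes with larger ratios were left out. The SD across genes and the shares are lowered by this.

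**Figure D2:**
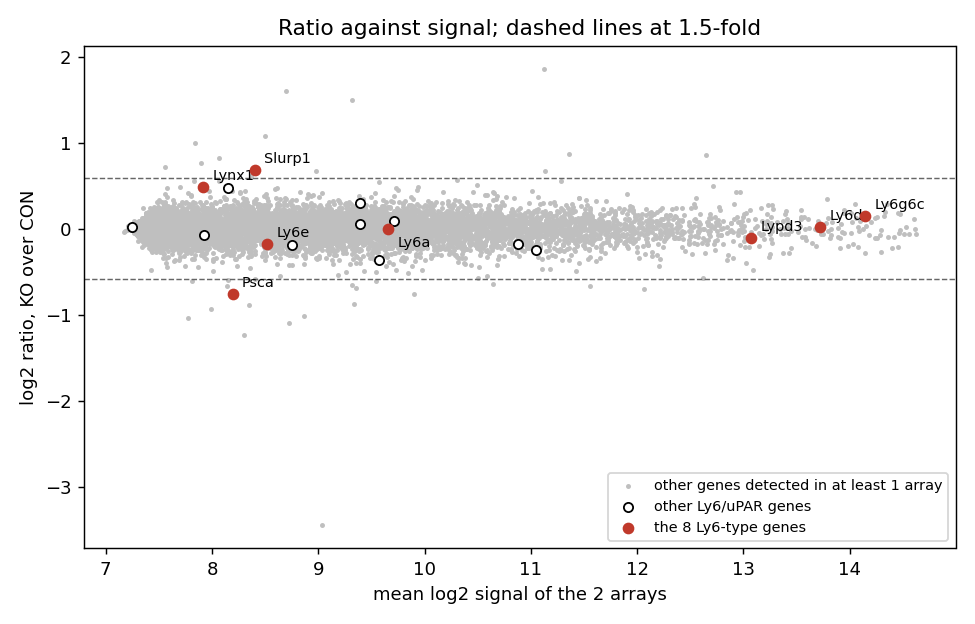
Log2 ratio, KO over CON, against the mean log2 signal of both arrays for all 8508 detected genes (grey), the 8 Ly6-type genes (red, named) and 10 further Ly6/uPAR genes (open circles), with dashed lines at 1.5-fold. Slurp1 (0.68) and Psca (-0.76) lie beyond the lines, Lynx1 (0.49) just below the upper one, and the bright genes Ly6d, Lypd3 and Ly6g6c near 0.

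The background left in the normalized signal draws ratios of weak probes towards 1. When the background was estimated and removed (neqc, from the readings before normalization), Slurp1 was 2.17-fold higher, Lynx1 2.04-fold higher and Psca 2.61-fold lower in KO. The same correction widened the spread of all genes: 1.34% were then at least 1.5-fold higher and 1.3% at least 1.5-fold lower. The directions of these 3 genes were the same as in the normalized values. Under this correction Slurp1 ranked 12th from the top, Lynx1 17th from the top and Psca 9th from the bottom.

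**Figure D3:**
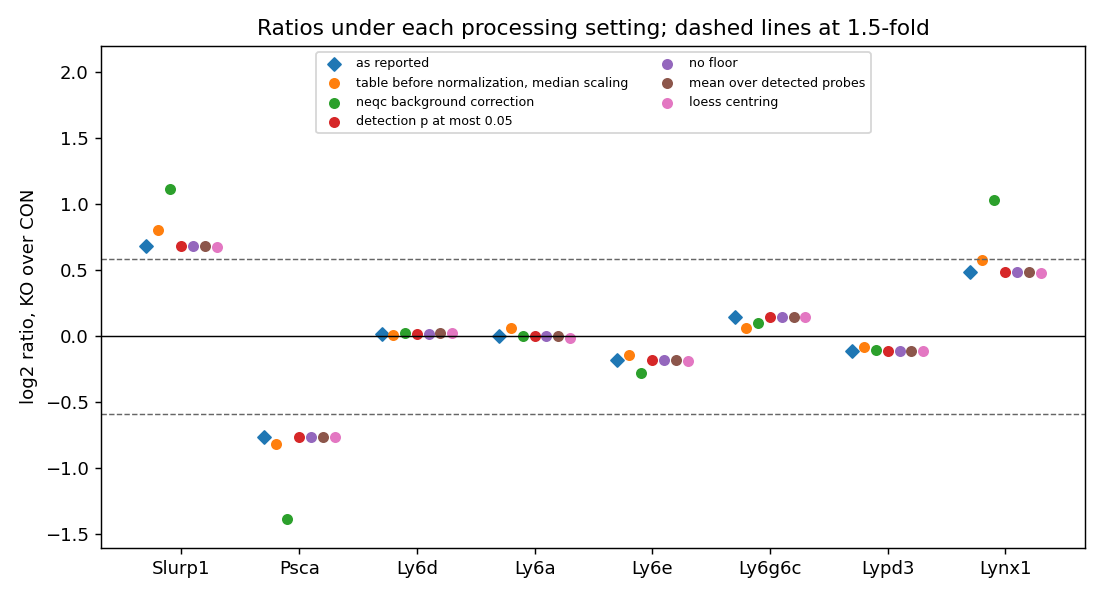
Log2 ratio, KO over CON, of the 8 genes as reported (diamonds) and under 6 alternative processing settings (circles), with dashed lines at 1.5-fold. Settings that change only detection, the raising of weak signals or probe averaging could not move those with 1 detected probe. Background correction (green) gives 1.11 for Slurp1, 1.03 for Lynx1 and -1.39 for Psca, and every other gene stays inside the lines under each setting shown.

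The wider Ly6/uPAR family was taken as a list of 47 mouse genes, of which 38 had a probe and 18 were detected, 17 of them in both samples. Ly6g6g, a gene with a Ly6 name that was also detected (log2 ratio -0.33), was not on this list and is not counted here. Of the 18, 10 had a log2 ratio above 0 and 8 below 0, with a median of 0.01, the same as the median of 0.01 over all detected genes. Outside the 8 genes above, 10 were detected, 5 with a ratio above 0 and 5 below, with a median of -0.03, and 0 of them reached 1.5-fold. The listed genes thus had ratios in both directions in similar numbers.

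Among these 10, Ly6m read 335.2 in KO and 242.3 in CON, 1.38-fold higher, and was 1.83-fold higher after background correction. Lypd6b, a relative of the Wnt modulator Lypd6, read 746.7 in KO and 607.2 in CON (log2 ratio 0.30). Cd59a, an inhibitor of the complement membrane attack complex, was 1.29-fold lower, with 670.6 in KO and 861.9 in CON. Ly6g6d, the neighbour of Ly6g6c, read 1940.2 in KO and 2303.3 in CON (log2 ratio -0.25). These 4 lay beyond 2 SDs of the spread between probes, as did 4.61% of all detected genes on the high side and 4.88% on the low side. The other 6 lay within it. They were Slurp2, Pinlyp (0.09), Cd59b (-0.07), Ly6g6e (-0.18), Lypd5 (-0.18) and Ly6h, which was detected in KO only at the lowest detectable level (166.6 in KO and 138.9, not above background, in CON, at least 1.01-fold higher). A further 20 family genes were not above background in either sample, including Plaur, the urokinase receptor (138.4 in KO and 135.8 in CON), and Lypd2 (163.8 in KO and 150.3 in CON). The 9 remaining genes of the list were not analysed here.

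Slurp1, Psca, Lynx1, Ly6d, Ly6e and Ly6a lie in 1 cluster on chromosome 15 in the RefSeq gene order. From Psca to Ly6a this order has 17 protein-coding genes, of which 16 had a probe and 10 were detected, all in both samples. Ratios in both directions and ratios near 0 were interspersed along the cluster. In the order from Psca to Ly6a that follows, only detected genes are named. Genes without a detected probe lie between some of them. Psca (-0.76) was followed by the thioesterase-like gene Them6, which lies between Psca and Slurp1 and read 252.4 in KO and 248.2 in CON (log2 ratio 0.02), then by Slurp1 (0.68), Slurp2 (0.05), Lynx1 (0.49) and Ly6d (0.02). Ly6g6g, named after its value was seen because it lies next to Ly6d, read 793.8 in KO and 996.7 in CON (-0.33), and was followed by Ly6m (0.47), Ly6e (-0.18) and Ly6a (0.001). On the other side of Psca, Jrk was not above background (148.0 in KO and 135.5 in CON).

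**Figure D4:**
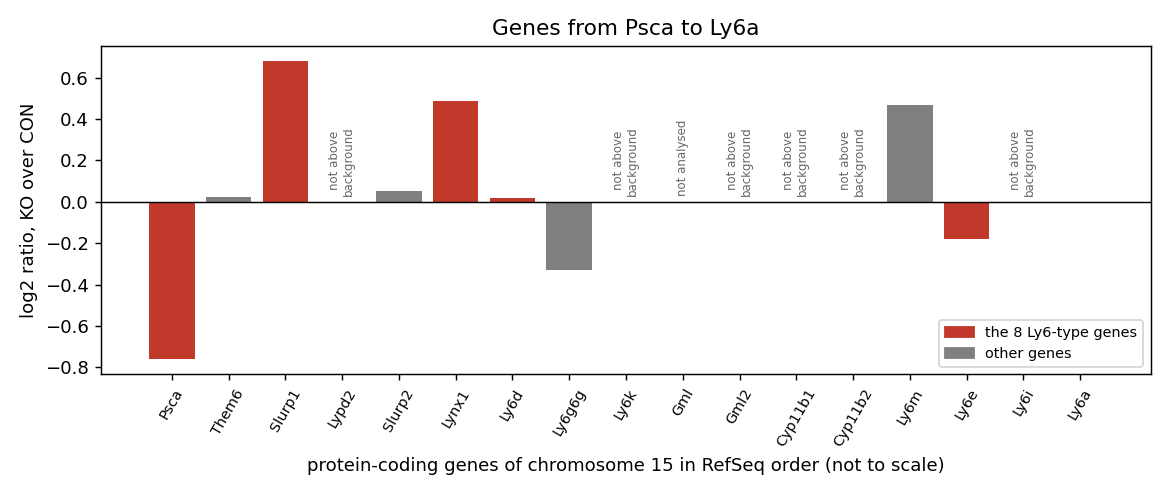
Log2 ratio, KO over CON, of the 17 protein-coding genes from Psca to Ly6a on chromosome 15, in RefSeq order and not to scale, with the Ly6-type genes under study in red. Psca (-0.76), Slurp1 (0.68), Lynx1 (0.49), Ly6m (0.47) and Ly6g6g (-0.33) lie furthest from 0 among the detected genes. Genes not above background or not analysed are labelled as such and have no ratio.

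Outside the cluster, the detected neighbours of Ly6g6c on chromosome 17 were Ddah2 (0.07), Mpig6b (-0.07), Ly6g6d and Ly6g6e. Of those of Lypd3 on chromosome 7, Ethe1 was detected (-0.18) and the Ly6/uPAR gene Tex101 was not above background.

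Genes of the receptors and partners on which Ly6-type proteins act were mostly at background. Of 16 nicotinic receptor subunit genes, 2 were detected. Chrnb1 read 209.6 in KO and 178.7 in CON (log2 ratio 0.23), and Chrna4 read 254.0 in KO and 268.0 in CON (-0.08), while Chrna7, the subunit usually named as the Slurp1 receptor, was not above background in either sample. All 10 genes of acetylcholine handling and muscarinic receptors were likewise not above background. Of 10 genes of the urokinase system 3 were detected, with ratios from -0.04 for the protease gene Plau to 0.03 for Vtn. Of 7 reported partners of Lypd3 4 were detected, all with ratios above 0 (median 0.17), among them the integrin genes Itgb4 (2435.4 in KO and 2160.8 in CON, 0.17 on its brightest probe and 0.005 on another) and Itga6 (0.16). The partner Agr2 was not above background. Of 30 genes of GPI anchor synthesis and processing 20 were detected, 8 above and 12 below 0 (median -0.05), with Dpm2 at -0.29, Gpld1 at -0.26 and Pigl at -0.18. None of these lists held a gene at least 1.5-fold apart.

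Of 26 genes whose human or mouse counterparts are linked to palmoplantar keratoderma, 18 were detected, 10 above and 8 below 0, with a median of 0.02. Slurp1, chosen with its higher KO signal known, was the only detected gene of this list at least 1.5-fold apart. The stress keratin gene Krt16 read 981.7 in KO and 806.9 in CON (log2 ratio 0.28), and the desmoplakin gene Dsp 5977.7 in KO and 5063.6 in CON (0.24).

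The layers of the epidermis were described through their own gene lists, since SLURP1 and Lypd3 are known from the upper layers. In the granular layer and cornified envelope list, 24 of 29 detected genes had ratios below 0, with a median of -0.14. Of these 29, 6 lay beyond 2 SDs of the spread between probes. Over all 8508 detected genes, 4045 had ratios below 0. The list median had the opposite direction from Slurp1 and the same as Psca. Klk6, a kallikrein-related protease, read 1276.4 in KO and 2000.7 in CON, and involucrin (Ivl) 2318.6 in KO and 3249.5 in CON. In the spinous list 8 of 14 genes were below 0 (median -0.03), and in the basal list 6 of 17 (median 0.07), with Krt14 at -0.20 and Krt5 at -0.28. Lypd3 (-0.11) and Ly6d (0.02) lay between the lowest and highest ratios of both the spinous list (-0.31 to 0.24) and the granular list (-0.65 to 0.19). Slurp1 lay above the highest ratio and Psca below the lowest ratio of each of these 3 layer lists. Both were chosen with their ratios known, so these positions are a description only and say nothing about the layers.

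**Figure D5:**
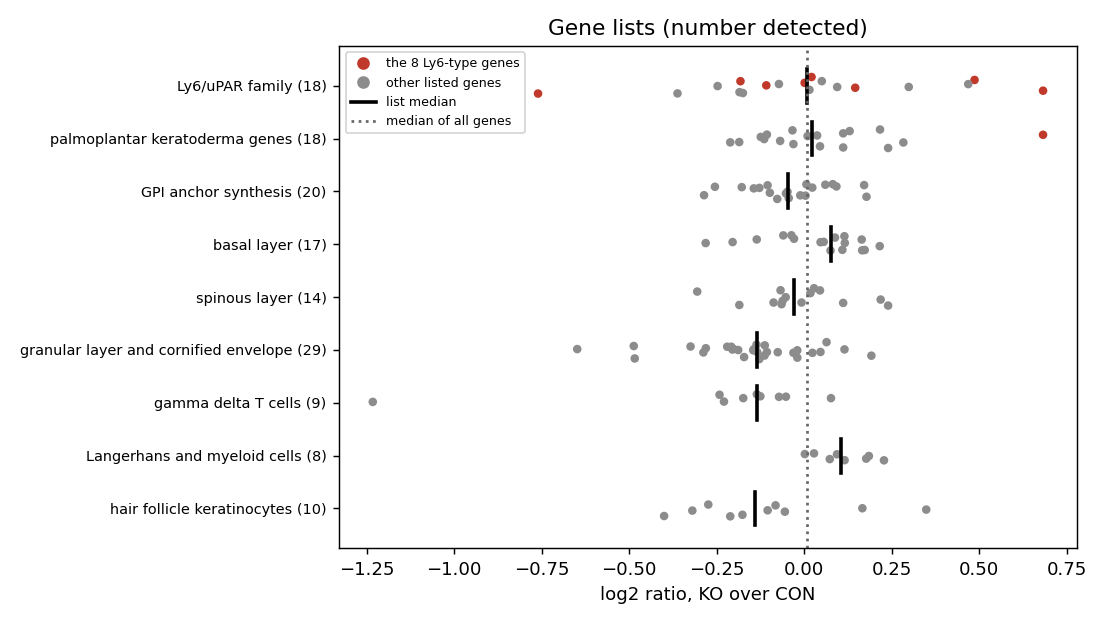
Log2 ratio, KO over CON, of every detected gene in 9 lists, with the number detected in parentheses, the 8 Ly6-type genes in red, list medians as black bars and the median of all detected genes (0.01) as a dotted line. The granular layer list (median -0.14) lies mostly left of the line. Slurp1 (0.68), chosen with its higher KO signal known, lies right of the other keratoderma genes.

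Markers of other cells were also compared between the samples, and the part of these cells in the ratios above was not tested. Those beyond 2 SDs of the spread between probes were 3 of 9 detected gamma delta T cell markers and 4 of 10 for the hair follicle. For erythroid cells they were 1 of 3, and for Langerhans and myeloid cells 1 of 8. Over all 8508 detected genes, 4045 had ratios below 0. Of the gamma delta T cell markers 9 of 12 were detected, 8 of them with a lower signal in KO on the brightest probe, as for Psca. Another probe of Trat1 (-0.23) was at 0.008. The summed signal of the 9 markers was 4053 in KO and 4638 in CON. A large share of this gap came from the chemokine gene Xcl1 (206.1 in KO and 484.2 in CON), without which the sum was 3847 in KO and 4154 in CON and the ratios ran from -0.24 to 0.08. Of 14 hair follicle keratinocyte markers 11 had a probe and 10 were detected, 8 of them below 0 on the brightest probe. Another probe of Krt75 (-0.08) was at 0.16. The 10 markers had a sum of 36997 in KO and 42899 in CON. Without Krt71 this sum was 29744 in KO and 33327 in CON. Hoxc13 (0.35) and Dsg4 (0.17, detected in KO only) were above 0. Of 6 erythroid markers 3 were detected, all below 0, with a sum of 1068 in KO and 1345 in CON, mostly through the alpha-globin gene Hba-a1 (239.0 in KO and 443.2 in CON). Without Hba-a1 the sum was 829.4 in KO and 901.8 in CON. Ptprc, Il2rb, Fyb, Krt25, Hbb-b1 and Epb42 were among those not above background. Of 12 Langerhans and myeloid markers 8 were detected, with ratios from 0.002 (H2-Eb1) to 0.23 (H2-Aa) on the brightest probe, the same direction as Slurp1 and Lynx1, and a sum of 14828 in KO and 14098 in CON. However, 4 of the 8 had another probe below 0, namely Csf1r (-0.15), Cd74 (-0.06), H2-Ab1 (-0.05) and Cd207 (-0.02). Lyz2, Fcer1g, Aif1 and Itgam were not above background. Of 23 interferon-inducible genes, the class to which Ly6e and Ly6a belong, 11 were detected, 5 above and 6 below 0 (median -0.06), with Isg15 at -0.17 and Ifi27l2a at -0.16.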

How the data were processed

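RNA pools of 3 mice were measured on 1 array for each genotype. The submitters' processing notes list GenomeStudio 2011.1. Per the file headers, the authors deposited linear intensity before and after normalization and a detection p-value for each probe; how they normalized is not stated there. Both normalized medians were 148.9, against 166.1 (KO) and 161.3 (CON) before. The lowest normalized intensity was 106.2, so background was not subtracted. The series' value table held the same numbers.

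Normalized intensities were raised to the lowest signal detected (p-value up to 0.01) on that array (165.9 in KO, 164.9 in CON) and log2 transformed. The brightest detected probe represented a gene. Where 1 sample was not above background the ratio is a bound. Probes were named by gene ID, accession, symbol or synonym in RefSeq genes of GRCm38.p6, used for names and order only (25376 matched, 321 kept the file's symbol). No test was possible with 1 sample per group, and the call was 1.5-fold. The calling rule was run on simulated data with every gene detected, 1 probe per gene and signals raised above those measured. That run did not cover detection, weak signals or variation between mice. Named genes were all 8 genes, each detected Ly6/uPAR gene, neighbours of 4 genes, up to 3 genes with the largest ratios in each list, and markers that define a list; some genes this rule selects are not named here. Genes and lists were chosen with earlier results of these data known. Alternatives included limma 3.58.1 neqc (offset 16), run in R 4.3.3. Figures and tables were made with Python 3.11.15.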

Additional observations from a re-analysis of the deposited data

How the results depend on the processing

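No paired analysis was possible because each genotype had 1 array, and for the same reason no sample could be left out. Slurp1, Psca, Lynx1, Ly6e, Ly6g6c, Lypd3 and Ly6d kept their direction under the 6 alternatives, and Ly6a, at 0.001, turned to -0.01 with loess centring. A detection cut-off of 0.05, no raising of weak signals and averaging of detected probes could not move those of the 8 with 1 detected probe. They returned the same ratios for all but Ly6d and so were no check of these directions. Median scaling of the readings before normalization gave a log2 ratio of 0.81 for Slurp1. Background correction (neqc) gave 1.11 for Slurp1, 1.03 for Lynx1 and -1.39 for Psca, and raised the number of genes at least 1.5-fold apart to 114 higher and 111 lower, against 15 and 20 as reported. At a 1.2-fold threshold the counts were 244 higher and 252 lower, and at 2-fold 4 and 5. The medians of the 8 genes and of the family list moved by less than the SD between probes under all 6 alternatives. The weak signals of Slurp1, Psca and Lynx1, each under 3 times the lowest detected signal, limit how well the size of their ratios is known. Ratios of 1 pool against 1 pool hold no variation between mice.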

Other observations

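The remaining marker lists held no gene at least 1.5-fold apart. Fibroblast markers had a median log2 ratio of 0.02 over 8 detected genes, with Vim at -0.22, Bgn at 0.18 and Fbln2 at 0.14. The median of 5 melanocyte markers was 0.03, that of 2 endothelial markers 0.02 and that of 5 skeletal muscle markers 0.06. Krt8 (0.02) was the 1 detected Merkel cell marker. Sebocyte markers had a median of -0.11 over 8 genes, with the wax synthase gene Awat2 at -0.50 and Mc5r and Mgst1 at 0.43 and 0.36.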
